A study of Mus musculus with 8 samples.

Results

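Transcripts of 8 genes of activated neutrophils and inflammatory myeloid cells were followed, well by well, in yolk sac libraries of the mouse embryo: the alarmins S100a8 and S100a9, the interleukin-1 genes Il1b and Il1rn, and Slfn4, Clec4d, Cd14 and Csf1. They are 8 of the 23091 genes listed in the deposited tables, and were chosen by name after earlier results of the same tables had shown their levels, their shares of wells and their joint detection. Those values are therefore a description, and no test rests on them. The series holds 8 libraries with 1536 wells in all, each well sorted to hold a single cell: 4 labelled A1 and A2 cells (A1/A2, early yolk sac myeloid cells) and 4 labelled EMP (erythromyeloid progenitors). Both groups are untreated wild type embryos of the strain C57BL/6N, kept in an SPF facility and taken at E9.5, with the yolk sac outside the embryo as the source. Both were stained for CD45 and CD11b and sorted for CD45+ cells. A1 and A2 cells share libraries and no label tells them apart, and the labels do not say whether the 4 libraries of a group came from separate embryos. The p-values below therefore measure the spread between libraries, which may be technical.

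S100A8 and S100A9 are calcium-binding proteins that pair with each other, are stored in large amounts in the cytosol of neutrophils and monocytes, and act as alarmins once released. Interleukin-1 beta, the product of Il1b, is made as an inactive precursor that caspase-1 cleaves inside inflammasomes, and it signals through IL1R1. Il1rn encodes the antagonist that occupies the same receptor without signalling. CD14 presents lipopolysaccharide to the TLR4 complex, Clec4d encodes a C-type lectin receptor that signals through the FcR gamma chain, Slfn4 is an interferon-induced gene of the Schlafen family in myeloid cells, and Csf1 encodes the growth factor of macrophages.

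S100a8 and S100a9 are read from opposite strands of mouse chromosome 3. Their promoter windows, 250 bases before to 50 after the annotated start, are shown because both genes were found in the same wells, and that of Il1b because it was found with them. The windows are those of RefSeq on GRCm38.p6, at chr3:90668821-90669120 (plus strand) for S100a8, chr3:90695672-90695971 (minus strand) for S100a9 and chr2:129371090-129371389 (minus strand) for Il1b. Each is written from 5′ to 3′, and capitals mark matches on either strand to 5 short motifs.

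S100a8: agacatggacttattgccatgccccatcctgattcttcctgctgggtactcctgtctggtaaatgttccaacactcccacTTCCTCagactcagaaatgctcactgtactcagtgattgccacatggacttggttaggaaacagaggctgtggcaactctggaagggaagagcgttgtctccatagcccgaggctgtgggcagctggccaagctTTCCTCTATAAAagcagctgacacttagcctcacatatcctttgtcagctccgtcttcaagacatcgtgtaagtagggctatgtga

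S100a9: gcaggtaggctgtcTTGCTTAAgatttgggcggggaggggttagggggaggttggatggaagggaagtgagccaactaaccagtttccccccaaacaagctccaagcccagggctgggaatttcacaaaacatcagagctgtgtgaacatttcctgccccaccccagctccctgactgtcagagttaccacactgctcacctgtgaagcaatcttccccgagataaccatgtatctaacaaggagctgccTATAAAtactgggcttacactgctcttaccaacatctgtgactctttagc

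Il1b: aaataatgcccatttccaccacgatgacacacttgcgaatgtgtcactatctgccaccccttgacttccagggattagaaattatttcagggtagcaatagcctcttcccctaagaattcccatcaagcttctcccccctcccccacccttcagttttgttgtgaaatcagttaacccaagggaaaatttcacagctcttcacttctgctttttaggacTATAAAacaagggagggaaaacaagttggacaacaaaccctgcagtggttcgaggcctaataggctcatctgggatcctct

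The motifs searched were TTGCNNAA (C/EBP, factors of granulocyte genes), GAGGAA (PU.1, the myeloid factor), TATAAA (the core promoter box), TGANTCA (AP-1) and, for NF-kB, GGG followed after any 2 bases by TTTCC, each on both strands. Of 32851 RefSeq promoter windows of this length, 10.8%, 28.3%, 13.6%, 7.81% and 1.63% held a match to them in this order. The S100a8 window held PU.1 letters on the opposite strand beginning at -170 and -36 and TATAAA at -30, the last directly beside the PU.1 letters. The S100a9 window held C/EBP letters at -236 and TATAAA at 0, that is, at the annotated start itself. Il1b held TATAAA at -31 and none of the letters of the other 4 motifs. Among the other members, Il1rn held AP-1 letters at -141 in one of its windows. Further Il1rn windows, which overlap, held the same stretch of NF-kB letters, at -51 and at 29. The Il1rn window with NF-kB letters at -51 also held TATAAA on the opposite strand at 14. Slfn4 held AP-1 letters at -34 and TATAAA at -19, Csf1 held NF-kB letters at -154, and Clec4d held PU.1 letters at 3 places. Windows of 7 of the 8 genes were matched, that of Cd14 not being used here. Such matches describe letters and are not binding sites.

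Wells with at least 1000 transcripts were kept, 568 of 768 in the A1/A2 and 655 of 768 in the EMP libraries. The kept wells of a library held 2558197 to 3559612 transcripts in A1/A2 and 3888853 to 5418136 in EMP, with a median of 6153 and 20369 per well. One set of well barcodes recurs in every library by design. Both groups hold wells of other lineages: 78 A1/A2 and 209 EMP wells drew at least 2% of their transcripts from 10 yolk sac endoderm genes. Levels per library are CPM, counts per 1e6 of sums scaled by TMM. In such sums, fewer cells of a type and less RNA per cell cannot be told apart.

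The alarmins were low in A1/A2 library 1 and high in library 3. S100a8 had 0, 29, 149 and 78 transcripts in A1/A2 libraries 1 to 4, or 0, 8.04, 54.7 and 22.3 CPM, and 0, 4, 2 and 0 transcripts in EMP libraries 1 to 4. S100a9 had 4, 42, 231 and 72 transcripts, or 1.57, 11.6, 84.8 and 20.6 CPM, against 0, 1, 0 and 0 in EMP. The S100a8 groups overlapped, because A1/A2 library 1 had no transcript, while every A1/A2 library lay above every EMP library for S100a9. The mean S100a8 level was 21.3 ± 24.1 CPM (SD, n = 4) in A1/A2, a spread wider than the mean, and 0.288 ± 0.371 in EMP. For S100a9 the means were 29.6 ± 37.6 and 0.0486 ± 0.0972 CPM.

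The interleukin-1 ligand and its antagonist had the same order of libraries at the ends, library 1 lowest and library 3 highest. Il1b had 0, 23, 94 and 37 transcripts (0, 6.37, 34.5 and 10.6 CPM) in A1/A2 and 2, 1, 3 and 3 in EMP, and the groups overlapped through A1/A2 library 1. Il1rn had 9, 106, 253 and 70 transcripts (3.54, 29.4, 92.9 and 19.99 CPM) against 5, 1, 3 and 2 in EMP. Every A1/A2 library lay above every EMP library for Il1rn. Counted over the groups and scaled to depth, Il1b was 27.2 times higher in A1/A2 (95% counting interval 13.9 to 60.5) and Il1rn 63.2 times (34.97 to 128). These intervals cover counting error and not the spread between libraries.

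The receptors and the Schlafen gene followed. Slfn4 had 2, 52, 150 and 59 transcripts (0.786, 14.4, 55.1 and 16.9 CPM) in A1/A2 and 2, 1, 0 and 0 in EMP. Clec4d had 1, 15, 44 and 21 transcripts (0.393, 4.16, 16.2 and 6.00 CPM) against 2, 1, 1 and 2. Cd14 had 6, 26, 69 and 20 transcripts (2.36, 7.204, 25.3 and 5.71 CPM) against 4, 5, 0 and 1. The groups overlapped for Clec4d and not for Slfn4 and Cd14. Csf1 differed from the other 7 genes in having transcripts in number in EMP too: 15, 17, 24 and 13 (3.15, 3.30, 4.51 and 3.26 CPM), against 10, 44, 59 and 21 (3.93, 12.2, 21.7 and 6.00 CPM) in A1/A2. Its groups overlapped, since EMP library 3 lay above A1/A2 library 1, and its ratio was 3.08 (2.29 to 4.18).

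**Figure D1:**
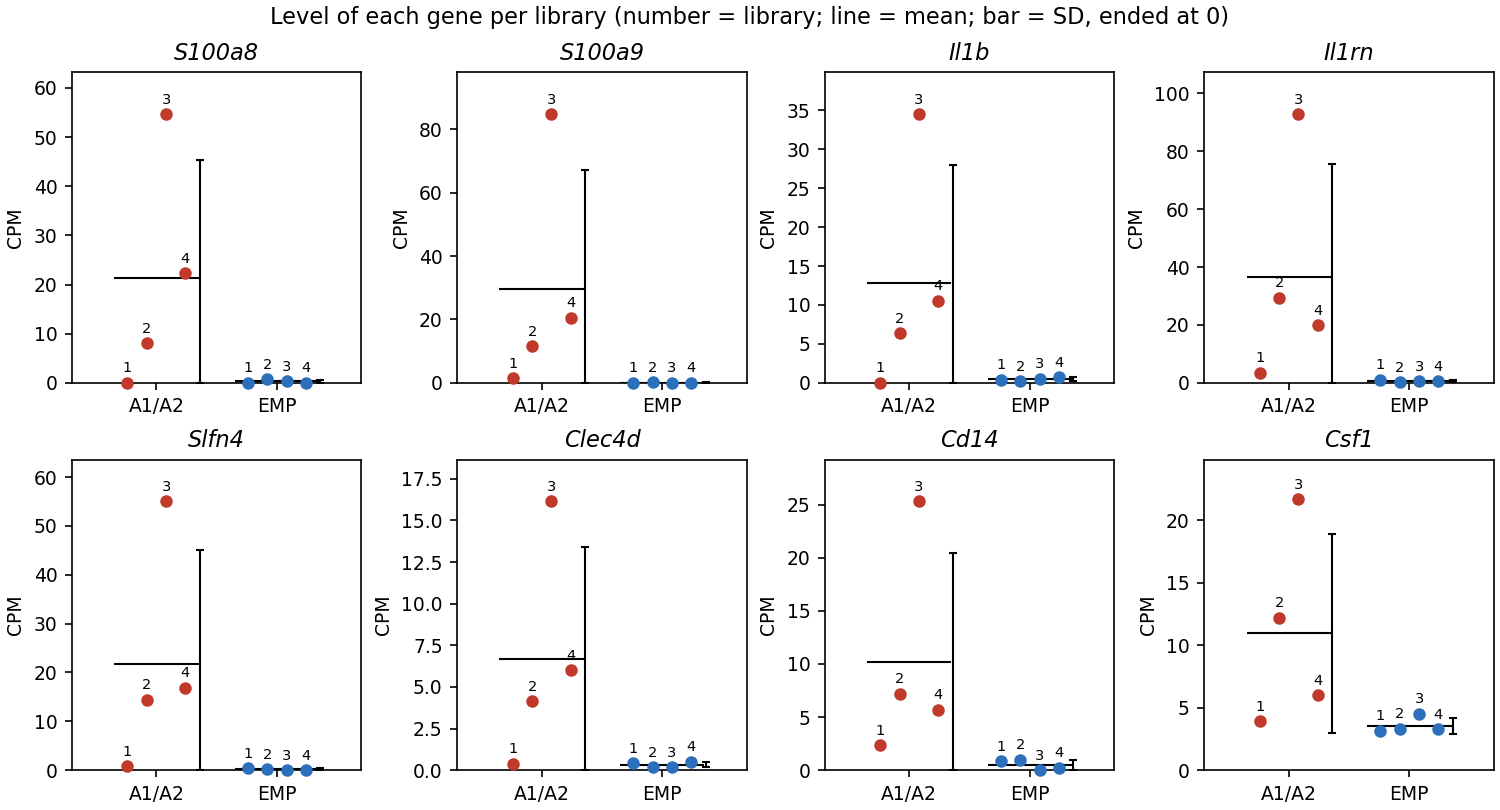
Level of each of the 8 genes in CPM (linear axes from 0) in the 4 A1/A2 and 4 EMP libraries. Each point is a library with its number, lines are means and bars SD (n = 4), ended at 0 where the SD exceeds the mean. For each gene, A1/A2 library 3 is highest and A1/A2 library 1 lowest of its group.

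In all, 4 of the 8 genes (S100a9, Il1rn, Slfn4 and Cd14) had every A1/A2 library above every EMP library, as had 10.4% of 23063 genes with a transcript. In the edgeR quasi-likelihood fit over all genes, 2 of the 8 genes, Il1rn and Csf1, passed the filter on low counts, and both were called higher in A1/A2 at an adjusted p under 0.05. Of all 11144 genes tested, 17.3% were called higher and 15.4% lower. The values of these genes led to their choice, so nothing is read from their calls. Il1rn had a log2 fold change of 5.91 ± 1.18 (SE), and Csf1 of 1.601 ± 0.45. Without A1/A2 library 3 that of Il1rn was 4.91. The Csf1 call was lost without A1/A2 library 3 (log2 fold change 1.077, adjusted p = 0.0532 by edgeR) and without EMP library 2 (1.56, adjusted p = 0.0521).

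With no filter, 6 of the 8 genes passed the threshold, beside 9.28% of all genes called higher. S100a8 (adjusted p = 0.0587 by edgeR) and Il1b (adjusted p = 0.0711) did not. Without A1/A2 library 1, all 8 passed the filter, which then asks for counts in fewer libraries, and all 8 were called, beside 13.8% of all genes called higher. Without EMP library 1, 2, 3 or 4 all 8 passed it too, and 6, 3, 8 and 8 were called, beside 15.4%, 15.3%, 14.6% and 16.1% of all genes.

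Several neutrophil genes, named here after their values were seen, were also lowest in A1/A2 library 1 and highest in library 3, and others were not. Retnlg had 0, 1, 14 and 10 transcripts in A1/A2 libraries 1 to 4, Lcn2 0, 2, 8 and 3, Ifitm6 0, 5, 13 and 4, Il1r2 2, 8, 18 and 14, and Hdc 8, 23, 71 and 32. Per depth, Hp (64.5, 33.5, 46.3 and 47.7 CPM), Cxcr2 (75.5, 57.6, 76.0 and 93.7 CPM) and Csf3r (40.9, 31.0, 55.4 and 40.3 CPM) were lowest in library 2 and not in library 1. These are the 3 genes with the most transcripts in the summed CPM of the neutrophil list without the 8 genes, which was 251, 220, 396 and 305. The macrophage list stood at 1394, 1214, 1380 and 1328 CPM. The lymphoid list stood at 272, 90.3, 266 and 112 CPM, and the erythroid list at 758, 5467, 7446 and 791. Library 3 was highest of the A1/A2 libraries for the neutrophil, monocyte, erythroid, and mast cell and basophil lists. The part of these other cells in the level of the 8 genes was not tested.

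As shares of kept wells, S100a8 or S100a9 was found in 4, 12, 34 and 20 wells of A1/A2 libraries 1 to 4, which is 3.03%, 8.39%, 26.8% and 12.0%. In EMP, 6 of 655 wells had a transcript of either. A few wells held most transcripts in libraries 2, 3 and 4, where the first 3 wells gave 54.9%, 67.1% and 79.4% of the alarmin transcripts. In library 1 each of the 4 wells had 1. Over the 4 libraries, Il1rn was in the most wells of the 8 genes (7, 20, 41 and 21), and Clec4d in the fewest (1, 10, 14 and 10). Between them stood Il1b (0, 12, 18 and 8), Slfn4 (1, 13, 25 and 11), Cd14 (3, 21, 19 and 8) and Csf1 (7, 19, 16 and 11).

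Shares depend on depth, so each well was also thinned to 1000 transcripts, which left out no kept well. The share of wells with S100a8 was then 3.62% ± 3.32 (SD, n = 4) against 7.72% ± 6.26 before, and with S100a9 3.87% ± 3.31 against 9.79% ± 9.42. Il1rn went from 16.1% ± 11.5 to 4.01% ± 4.01, and Csf1 from 9.45% ± 4.07 to 2.93% ± 2.00. The thinned shares of the 8 genes lay between 1.54% and 4.01%, with SDs from 1.13 (Clec4d) to 4.10 (Slfn4), so that neighbours in this order did not differ beyond their spread. Thinned shares in EMP were at most 0.325% ± 0.376, for Il1rn and for Csf1.

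For comparison, shares were taken in the endoderm-rich wells, in which the 10 endoderm genes gave at least 2% of transcripts. Of 78 such A1/A2 wells, with a median of 32274 transcripts, 14.1% had an alarmin transcript, 24.4% an Il1rn, 12.8% a Slfn4, 12.8% a Csf1, 8.97% an Il1b, 7.69% a Cd14 and 5.13% a Clec4d transcript. In 209 EMP endoderm-rich wells, with a median of 35281, 0.957% had an alarmin and 3.83% a Csf1 transcript. These wells were not shown to lack myeloid cells, since 30.8% of the A1/A2 ones had a Cx3cr1 transcript. Over all kept A1/A2 wells the pooled share was 12.3% for the alarmins and 15.7% for Il1rn, below that of the deeper endoderm-rich wells, so these shares are not read as expression.

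After thinning, the endoderm-rich A1/A2 wells with a transcript were 2.56% for the alarmins, 1.28% for Il1b, Il1rn and Cd14, and 0 for Slfn4, Clec4d and Csf1, which allows up to 3.85%. The thinned shares over all kept wells were 5.48% ± 4.54 (SD, n = 4) for the alarmins, 1.79% ± 1.63 for Il1b, 4.01% ± 4.01 for Il1rn and 2.68% ± 3.57 for Cd14. None of these 4 gaps was larger than the SD between libraries. Slfn4, at 3.86% ± 4.10, lay just above the limit for 0, and Clec4d, at 1.54% ± 1.13, and Csf1, at 2.93% ± 2.00, lay below it.

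The 8 genes were found together in a small number of wells. Of 568 A1/A2 wells, 186 had a transcript of at least 1 of them (21, 49, 65 and 51 wells in libraries 1 to 4), 34 had 4 or more (0, 11, 17 and 6) and 9 had all 8 (0, 2, 6 and 1). Of 655 EMP wells, 79 had at least 1, 6 had 2 or more and 0 had 4 or more. The 34 wells with 4 or more had a median total of 6200 transcripts, and 7 of them had a Cx3cr1 transcript. In library 1, 19 of the 21 wells had 1 of the genes and the other 2 had 2.

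**Figure D2:**
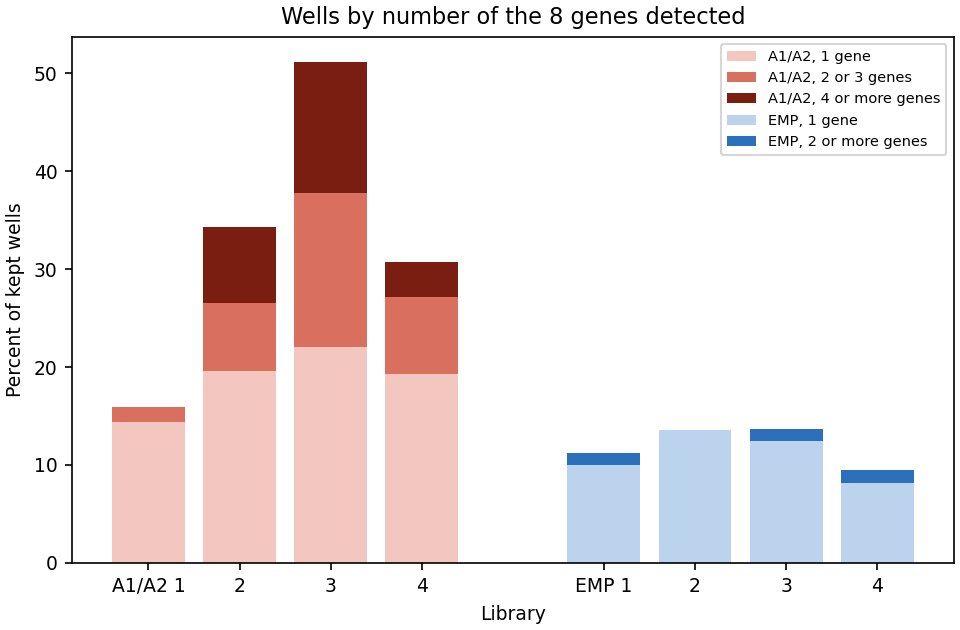
Percent of kept wells with a transcript of 1, of 2 or 3, and of 4 or more of the 8 genes in each A1/A2 library, and of 1 and of 2 or more in each EMP library. Wells with 4 or more genes were found in A1/A2 libraries 2 to 4, where they numbered 11, 17 and 6.

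The 9 wells with all 8 genes held 2048 to 80379 transcripts, 6 of them under 10000. In them the 8 genes gave 36 to 175 transcripts. Of the 9, 3 had a Cx3cr1, 2 a Ly6c2 and 1 a Mpo transcript. In one of library 3, of 5214 transcripts in all, 34 were S100a8, 69 S100a9, 36 Il1rn, 18 Slfn4, 7 Clec4d, 5 Cd14, 5 Csf1 and 1 Il1b, with no Cx3cr1. In another of library 3, of 7275 transcripts, 44 were S100a8 and 53 S100a9, with 26 Il1rn, 24 Slfn4 and 1 Cx3cr1. These were the 2 wells in which the alarmins passed 1% of the total.

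S100a8 and S100a9 shared 27 wells, 61.4% of the 44 wells with S100a8 and 50.9% of the 53 with S100a9. S100a9 was found in 4.96% of the wells without S100a8. Among the 70 wells with either alarmin, 38 had Il1rn (42.7% of all Il1rn wells), 27 had Slfn4 (54.0% of Slfn4 wells), 25 had Csf1 (47.2%), 22 had Il1b (57.9%), 22 had Clec4d (62.9%) and 21 had Cd14 (41.2%). Il1b, the ligand, and Il1rn, its antagonist, met in 24 wells, 63.2% of the 38 Il1b wells and 27.0% of the 89 Il1rn wells. Cd14 was in 22 of the 38 Il1b wells (57.9%) and in 5.47% of the wells without Il1b.

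**Figure D3:**
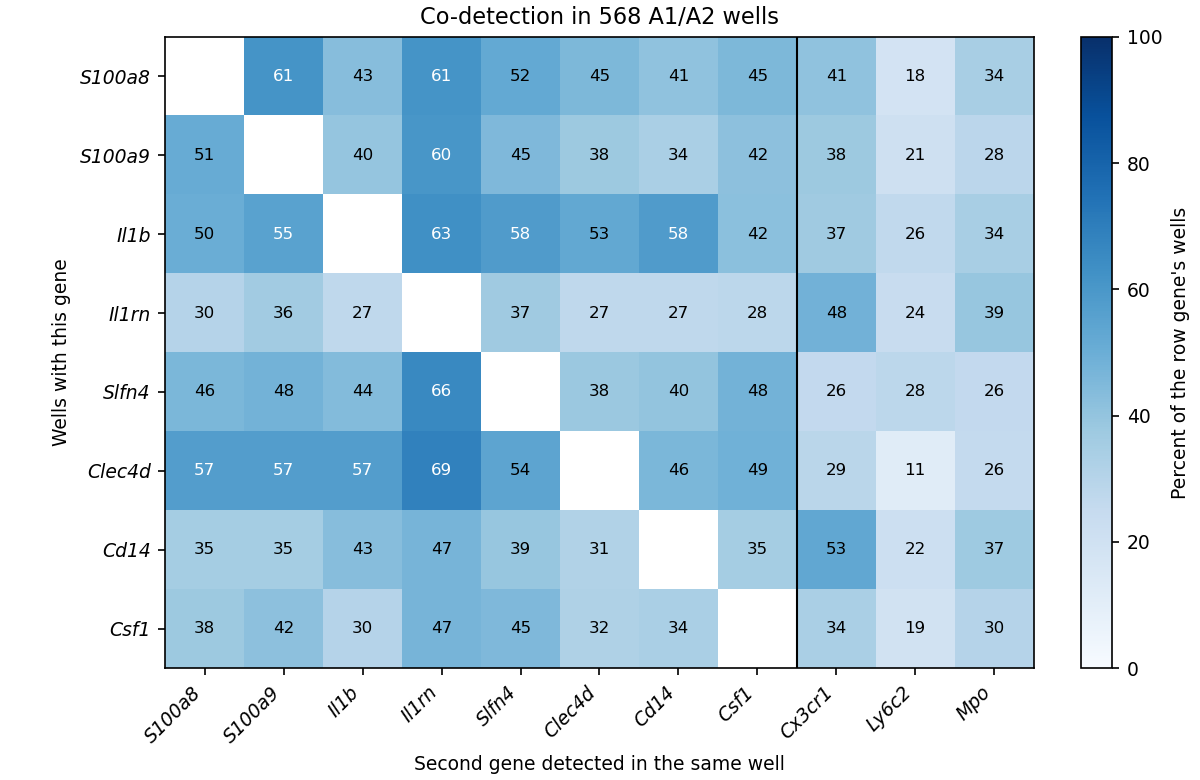
Percent of the A1/A2 wells with the gene of each row that also had the gene of each column, over 568 kept wells. The vertical line separates the 8 genes from Cx3cr1, Ly6c2 and Mpo. Il1rn is the most frequent partner of S100a9, Il1b, Slfn4, Clec4d and Csf1, from 47.2% (Csf1) to 68.6% (Clec4d) of their wells. For S100a8 it ties with S100a9, at 61.4% each. Ly6c2 lies between 11.4% and 28.0% of wells in every row.

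Joint detection was also seen at a common depth. After thinning to 1000 transcripts, 30 A1/A2 wells had an alarmin transcript, and S100a8 and S100a9 met in 11 wells, out of 20 and 21. Il1rn was found in 46.7% of the 30 and in 1.49% of the other 538 wells, Slfn4 in 46.7% and 1.30%, and Csf1 in 43.3% and 0.558%. Il1b stood at 23.3% and 0.558%, Clec4d at 20% and 0.558%, and Cd14 at 20% and 1.49%. Each of the 6 genes was thus more frequent among thinned alarmin wells than among the others. Wells of a library are not replicates, and 15 of the 30 wells are of library 3.

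Transcripts that mark the sorted myeloid cells and their relatives overlapped the alarmins to different degrees. Cx3cr1, the fractalkine receptor that marks A2 cells, was in 30 of the 70 alarmin wells (42.9%) and in 33.3% of the wells without an alarmin transcript; per library it was in 2 of 4, 2 of 12, 14 of 34 and 12 of 20. The 30 wells with both had a median total of 55528 transcripts, and the 40 alarmin wells without Cx3cr1 a median of 4517. Mpo, the myeloperoxidase of primary granules, was in 23 alarmin wells (32.9%, against 19.9% of the others), and the wells with both had a median of 75397. Ly6c2, a marker of inflammatory monocytes, was in 13 (18.6%, against 12.2%), with a median of 70327. At a common depth of 1000 transcripts, Cx3cr1 was in 10% of the 30 alarmin wells and in 7.06% of the others, Ly6c2 in 3.33% and 2.79%, and Mpo in 0 of the 30, which allows up to 10%, and in 2.60% of the others.

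The overlap of the single genes varied. Cx3cr1 was found in 52.9% of the Cd14 wells and 48.3% of the Il1rn wells, and in 26% of the Slfn4 and 28.6% of the Clec4d wells. Mpo ranged from 25.7% of the Clec4d wells to 39.3% of the Il1rn wells. No common depth was set for these shares, and the wells of the genes differed in depth, so they are not read as differences between genes. In A1/A2 library 4 the median total was 64207 for Cd14 wells and 12192 for Slfn4 wells, while in library 3 it was 10157 for both. Summed over the 196 wells with Cx3cr1, the alarmins stood at 21.0 CPM, Il1b at 4.11 and Il1rn at 19.9 (here and below per 1e6 transcripts of the summed wells, without TMM). In the 372 wells without Cx3cr1 they stood at 107, 29.8 and 67.7 CPM.

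The alarmin wells were therefore described apart by depth, below and from 10000 transcripts, a choice made after the values were seen. The 336 shallow wells (median 2503) had an alarmin level of 347 CPM and the 232 deep wells (median 42000) one of 19.1. In libraries 1 to 4 the shallow wells had 8.30, 177, 893 and 205 CPM and the deep wells 0.863, 9.02, 41.9 and 25.6. The shallow level was thus higher in libraries 2 to 4. In library 1 it was higher too, but on 4 alarmin transcripts in 4 wells, which are too few to compare. Of all alarmin transcripts, 64.8% lay in the 34 shallow wells with an alarmin (2, 7, 17 and 8 per library). The 36 deep alarmin wells had a median total of 60015 transcripts and held the other 35.2%, at 90.5 CPM. Of the 150 alarmin transcripts of library 4, 67 lay in 1 deep well of 88802 transcripts without Cx3cr1.

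**Figure D4:**
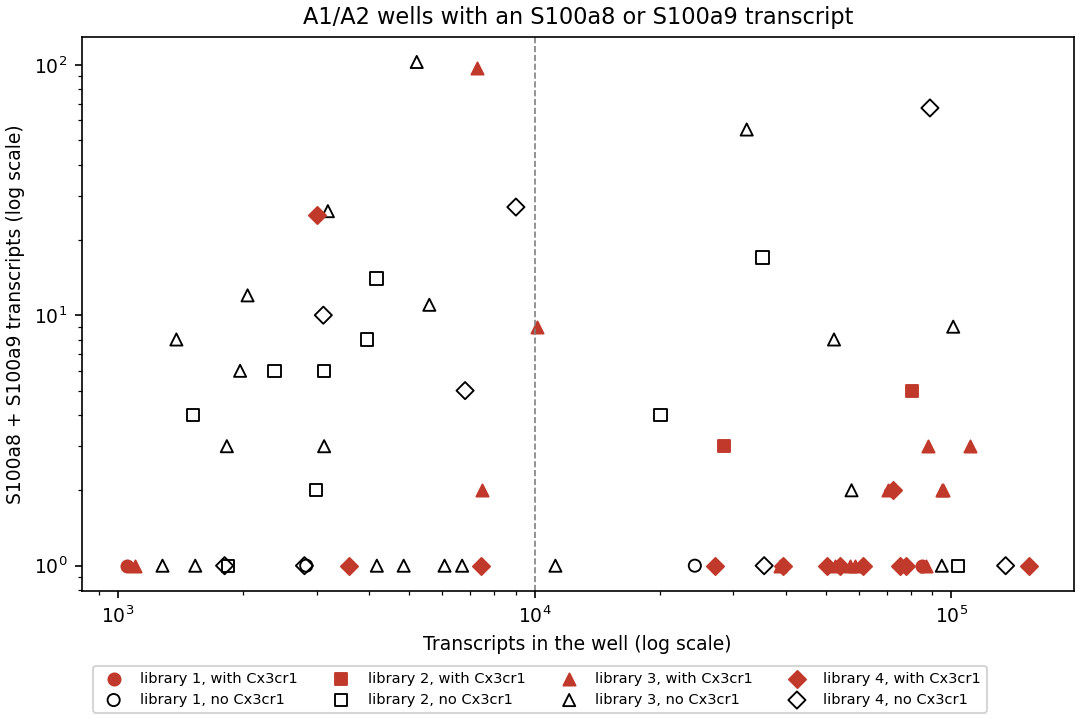
Number of S100a8 and S100a9 transcripts against the total transcripts of the well, both on log scales, for the 70 A1/A2 wells with at least 1. Symbols give the library, filled symbols wells with a Cx3cr1 transcript, and the dashed line 10000 transcripts. Most filled symbols lie right of the line: 23 of the 30 wells with both were deep.

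Within the shallow wells, those with and without an alarmin transcript can be set side by side at similar depth (median 3118 and 2455). Il1b stood at 381 CPM in the 34 wells with an alarmin and 3.97 in the 302 without, Il1rn at 1405 and 11.9, and Slfn4 at 1047 and 15.9. Clec4d stood at 364 and 3.97 CPM, Cd14 at 388 and 7.95, and Csf1 at 460 and 6.96. In libraries 2, 3 and 4, each of the 6 genes was higher in the shallow alarmin wells of the same library. In library 2, Il1rn had 1553 against 9.43 CPM, in library 3 1764 against 28.4 and in library 4 853 against 9.68. Library 1 had 2 such wells, with 1 Csf1 transcript and none of the other 5 genes.

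**Figure D5:**
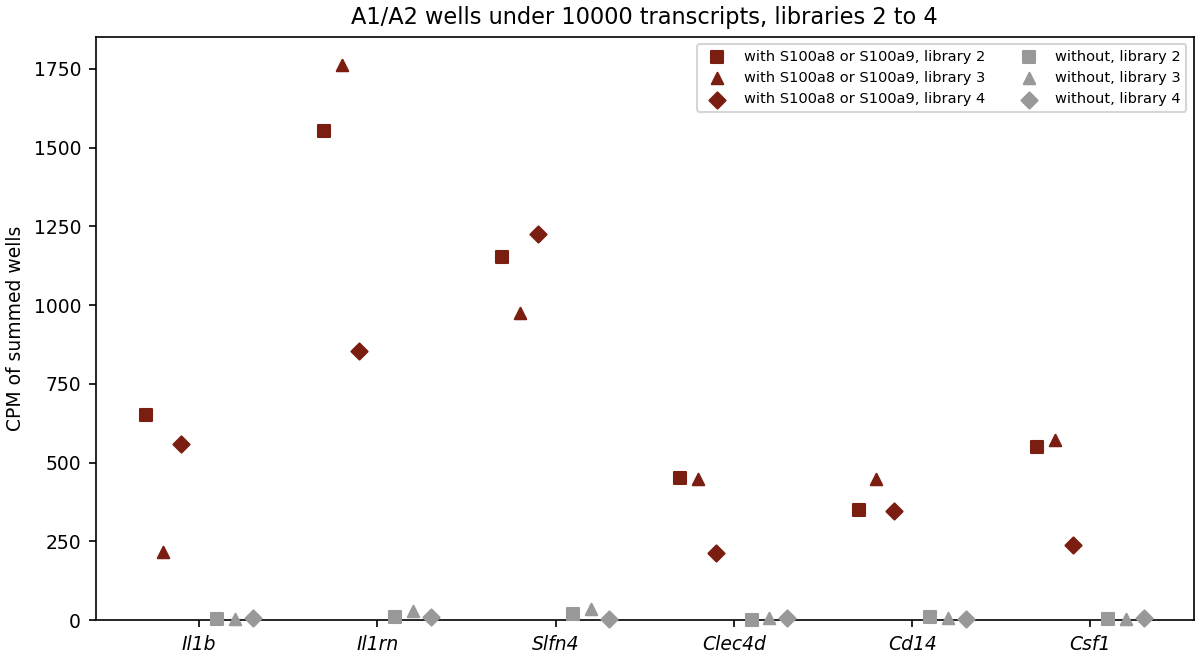
CPM of 6 genes in A1/A2 wells under 10000 transcripts, summed per library over wells with an S100a8 or S100a9 transcript (dark) and without (grey), for libraries 2 to 4. The axis is linear from 0. Each dark point lies above each grey point of the same gene.

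The shallow alarmin wells also differed in genes outside the 8, some picked here after their values were seen. Csf3r, the receptor of the neutrophil growth factor G-CSF, stood at 523 CPM with and 39.7 without an alarmin transcript, Cxcr2, a chemokine receptor of neutrophils, at 222 and 35.8, Il1r2, the decoy receptor of interleukin-1, at 174 and 1.99, and Hdc, the enzyme that makes histamine, at 277 and 5.96. The neutrophil list as a whole stood at 2377 and 416 CPM. The Cx3cr1 level was 63.4 and 65.6 CPM, and the macrophage list stood at 903 and 1483, the monocyte list at 562 and 2030, and the lymphoid list at 71.3 and 1081. The erythroid list differed between libraries: with and without an alarmin transcript it stood at 515 and 988 CPM in library 1, 1301 and 3730 in library 2, 2825 and 4575 in library 3, and 16028 and 1871 in library 4. Mpo had 0 transcripts in the 34 wells and 12.9 CPM in the 302. The 34 wells hold so few transcripts that the limit for a count of 0 lies above this level, so no difference is read.

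The deep alarmin wells showed less of this pattern, and single wells carried part of it. In them Il1rn stood at 59.1 CPM, against 12.4 in deep wells without an alarmin, Slfn4 at 36.1 against 3.40 and Csf1 at 13.6 against 4.19. A well of 10157 transcripts, just above the limit, gave 41 of the 85 Slfn4 and 35 of the 139 Il1rn transcripts, and without it the levels were 18.7 CPM for Slfn4, 44.4 for Il1rn and 9.37 for Csf1. Il1b stood at 28.5 against 3.97 CPM, but 52 of its 67 transcripts lay in 1 well of library 3, and without that well the level was 6.50, and 3.48 without both wells. Cd14 stood at 7.21 and 5.33. In the 34 shallow alarmin wells, the wells left out were those with the most S100a8 and S100a9. The levels were then 396 CPM for Il1b, 1012 for Il1rn and 792 for Slfn4. Il1b had 48 transcripts before and 45 after, so this removal could hardly change its level. Since the wells were picked by different genes, the shallow and deep removals are not compared. In the deep wells with and without an alarmin transcript, Csf3r stood at 36.5 and 35.8 CPM and Mpo at 50.2 and 42.1. The neutrophil list stood in these deep wells at 291 and 245, while Cx3cr1 was at 62.4 and 128. Of the 36 deep alarmin wells, 23 had Cx3cr1 and 23 had Mpo. Deep wells have more chances to show 1 transcript from any source, and the source of single transcripts was not tested.

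Single wells could carry much of a gene. The well with the most Il1b, in library 3, held 52 of that library's 94 Il1b transcripts among 52269 in all, with 1 S100a8, 7 S100a9 and 1 Il1rn, and 3.81% of its transcripts came from the endoderm genes. It therefore counts among the endoderm-rich wells above, which had 61 Il1b transcripts in total. The well with the most Cd14, also of library 3, held 17 Cd14, 5 Il1b and 8 Ly6c2 transcripts and no S100a8 or S100a9. Another held 41 Slfn4, 35 Il1rn and 10 Csf1 transcripts beside 1 S100a8 and 8 S100a9.

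The label of neutrophil genes was checked against defining markers. Of 31 genes in the neutrophil list, some late granule genes were at or near 0: over the 4 A1/A2 libraries, Ltf had 1 transcript and Mmp8 4, against 6 and 1 in EMP. Lcn2 had 13 and Retnlg 25, against 2 and 1 in EMP, and Chil3 had 168 and Wfdc17 68, against 1 each. Hp had 578 and BC100530 371, against 72 and 7. Of the primary granule list, Elane and Ctsg had 4 each, against 6 and 0 in EMP, while Prtn3 had 1464 and Mpo 503, against 520 and 346. Gfi1 had 7, against 55 in EMP. Camp, Ngp and Ly6g were not analysed here. Cxcr2 and Csf3r were common, at 57.6 to 93.7 and 31.0 to 55.4 CPM in the A1/A2 libraries, but in library 1 they stood at 75.5 and 40.9 CPM while S100a8 was at 0. They were present in EMP at 27.9 ± 4.07 and 17.6 ± 2.65 CPM. These values cover all kept wells: Cxcr2 was found in 229 and Csf3r in 198 of 568 A1/A2 wells, against 70 with an alarmin transcript. The markers thus went both ways in the libraries, which does not settle what the alarmin wells hold. In the shallow alarmin wells, as given above, the neutrophil list was higher and the monocyte and macrophage lists lower than in the other shallow wells. The wells are called here by their alarmin transcripts and not as neutrophils.

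In the edgeR fit, 6 of the 7 tested genes of the neutrophil list rose and 0 fell, beside 17.3% higher and 15.4% lower of all genes tested. The same shares stand beside each list below. A list's count covers genes that passed the filter on low counts, which a gene can pass through the group where it is high. The median log2 fold change was 1.44 for the neutrophil list and -0.02 for all genes tested. These were led by Cxcr2 (1.44 ± 0.15, SE), Hp, which encodes haptoglobin (3.69 ± 0.42), and Csf3r (1.25 ± 0.18). Of 9 primary granule genes 3 were tested and rose: Prtn3, a serine protease, by 2.16 ± 0.26, Mpo by 1.24 ± 0.26 and Cebpa, the factor of granulocyte commitment, by 1.27 ± 0.30. The rest of this list did not pass the filter and went both ways. Gfi1 had 7 transcripts in A1/A2 and 55 in EMP, Elane 4 and 6, Ms4a3 0 and 3, and Prss57 0 and 1. Ctsg had 4 and 0, and Fcnb 1 and 0.

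Of the interleukin-1 system, 9 of 16 tested genes rose and 1 fell (17.3% and 15.4% of all genes), with a median of 0.59. Casp1, the caspase that matures interleukin-1 beta, rose by 5.08 ± 0.52 on the log2 scale, and its partners in the inflammasome, Pycard by 1.69 ± 0.19 and Nlrp3 by 3.86 ± 0.44. Il18rap, a chain of the interleukin-18 receptor, rose by 1.27 ± 0.20. The signalling receptor Il1r1 did not pass, with 2.17 ± 1.40 CPM in A1/A2 and 3.29 ± 1.39 in EMP (adjusted p = 0.390 by edgeR). Sigirr, which dampens the pathway, fell by 0.56 ± 0.14. Casp1 differed from Il1b in its spread, with 7.47, 8.59, 12.1 and 18.0 CPM in A1/A2 libraries 1 to 4 and hence no gap at library 1.

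Among receptors that sense alarmins and lipopolysaccharide, 7 of 12 tested genes rose and 0 fell (17.3% and 15.4% of all genes), with a median of 1.56. Tlr4 rose by 3.07 ± 0.28, Tlr2 by 3.02 ± 0.43, and Cd180 and its partner Ly86, which bind each other in a related complex, by 2.75 ± 0.20 and 5.07 ± 0.31. Tlr4 had 9.44, 9.97, 11.7 and 9.996 CPM across the A1/A2 libraries, while its co-receptor Cd14 ranged from 2.36 to 25.3. Other S100 genes did not move as one: of 8 tested, S100a6 (2.07 ± 0.16) and S100a4 (3.84 ± 0.59) rose, and S100a16, S100a1 and S100a10 fell by 0.97 ± 0.20, 0.70 ± 0.14 and 0.45 ± 0.12, with a median of -0.03.

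Of the Schlafen family other than Slfn4, 3 genes passed the filter. Slfn2 rose by 2.94 ± 0.23 and Slfn8 by 0.96 ± 0.31, and Slfn1, which passed it through A1/A2, had 0 transcripts in all EMP libraries and 8.69 ± 4.49 CPM in A1/A2. Slfn5, with 53 transcripts in A1/A2 and 7 in EMP, and Slfn3, with 4 and 13, did not pass it. Of the Clec4 family and its signal chain, 2 of 4 tested genes rose, Fcer1g (1.94 ± 0.14), which encodes the FcR gamma chain, and Syk (0.65 ± 0.19), the kinase behind it, with a median of 0.63. All 4 were genes of the signal chain, and no Clec4 gene passed the filter. Clec4n had 130 transcripts in A1/A2 and 5 in EMP, Clec4a1 81 and 5, Clec4a3 68 and 5, and Clec4e 64 and 21. Of the colony stimulating factors and receptors other than Csf1, 3 of 6 rose and 2 fell, with a median of 1.01. Csf1r, the receptor for the Csf1 product, rose by 3.47 ± 0.14, from 18.4 ± 3.53 to 205 ± 23.5 CPM. Csf2ra rose by 1.13 ± 0.19, while Kit and its ligand Kitl fell by 2.18 ± 0.22 and 0.75 ± 0.16.

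Lists of other cell types moved with the group as well. In the same fit, 9 of 10 tested monocyte genes, 10 of 14 macrophage genes and 4 of 4 lymphoid genes rose, and 1, 1 and 0 fell. Of 10 endoderm genes 6 fell, and of 10 endothelial genes 9 fell, while none rose in either list. Their part in the results of the pathway lists was not tested.

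The genes whose counts per 10000 were most like those of the 8, by Spearman correlation over the 568 A1/A2 wells among 11779 genes, included the other members. These correlations share wells, libraries and depth, and describe these wells. S100a8 was most like S100a9 (0.54), Il1b most like Clec4d (0.53), Cd14 most like Il1b (0.47), and the correlations of all 28 pairs lay between 0.30 and 0.54. Outside the 8, Irg1, which encodes the enzyme that makes itaconate, was the first partner of Csf1 (0.47) and the second of S100a9 (0.47), and was detected in 26 wells. Slfn4 was most like Rsad2 (0.54), an interferon-induced antiviral gene. Il1b had Cd300lf, an inhibitory myeloid receptor, among its 5 (0.48), and Clec4d had Clec4n, another C-type lectin (0.47).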

How the data were processed

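Single-well transcriptomes were made by mCEL-Seq2, per the labels' protocols. What the authors deposited is a table per library of estimated counts, without scaling for depth. Tools named in the submitters' processing notes are BWA 0.6.2-r126 and Seurat. What each did, the genome build and how reads of near-identical genes were treated is not given in the sources used here. Genes without an entry in a library were taken as 0.

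Wells of at least 1000 transcripts were kept, and counts were summed per library, rounded and compared with edgeR 4.0.16 (quasi-likelihood, robust, TMM, filterByExpr, no block) (R 4.3.3), at 5% after Benjamini-Hochberg adjustment. The SE is that of the log2 fold change, taken from the F statistic. The fit was tested on simulated data. DESeq2 1.42.0, other filters, thinning and leaving out each library were the alternatives. Total counts per library limit the precision: limits for a count of 0 use 3 counts, and intervals are 95%, exact binomial on the split of transcripts between groups, for counting error only. No caller for doublets was run. Wells were sorted to hold a single cell each, but whether some held more than that was not tested.

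The 8 genes and the gene lists were chosen with earlier results of these data known. Named genes are the 8, and at most 4 per list by smallest p. Added to them are the 5 most alike by Spearman correlation of at least 0.3 (genes in at least 20 wells). Others were chosen after their values were seen, as were the markers of the label check. These others include Il1r1, Sigirr, S100a10, Kitl and the list genes given as not passing the filter. A comparison of wells with at least 1% alarmin transcripts and no Cx3cr1 with Cx3cr1 wells was planned and could not be fitted, since 2 wells in all reached 1% and no library held 3 wells of that class. Wells with any alarmin transcript, and wells under and from 10000 transcripts, were described instead, with no test.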

Additional observations from a re-analysis of the deposited data

Results flagged for a closer look

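Among 36 checks of 4 libraries for a value far from the other 3 (Dixon's test at 95%), 3 stood out, all in EMP. Chance gives about 1 in 20 for independent checks. Level and share of a gene were both checked, so these are not independent and the count is not set against chance. S100a9 had 0.194 CPM in EMP library 2 and 0 in the other 3, which is 1 transcript in 1 well, or 0.565% of the wells of that library. This transcript was flagged as level and as share, and beside values of 0 any transcript would be. Csf1 had 4.51 CPM in EMP library 3, against 3.15 to 3.30 in the other 3. In data outside the comparisons, the 200 A1/A2 wells under 1000 transcripts held 14 transcripts of the 8 genes, in 10 wells, above 1 transcript in the 113 such EMP wells.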

How the results depend on the processing

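Between the A1/A2 and EMP libraries the main setting called 3651 genes. With wells thinned to 1000 transcripts it called 125, of 2338 tested; the thinned sums hold fewer counts, and fewer genes passed the filter. The other settings stayed within 1.5 times: DESeq2 3584, no filter 4451, wells of at least 500 transcripts 3619, of at least 2000 transcripts 3643, and without the 2 wells of at least 1% alarmin transcripts 3649. Leaving out 1 library gave 2596 to 4087 calls. The fit with the replicate block called 4736 genes, 3624 of them shared; the titles number the libraries 1 to 4 in both groups without saying that a number marks a shared litter or day, and same-numbered libraries correlated at 0.22, 0.39, -0.02 and 0.22. The numbers are not taken as pairs because not all 4 passed 0.1, and library 3 did not correlate best with its own number. The mean share of A1/A2 wells with any of the 8 genes, 33.0% ± 14.5 (SD, n = 4), was 10.1% after thinning, 28.0% and 39.3% with other minimum totals, and 27.0% to 38.7% without 1 library. The log2 fold changes of Il1rn and Csf1 kept their direction under all alternatives in which they were tested, which thinning did not allow. The planned test of alarmin wells against Cx3cr1 wells could not be fitted, and its alternatives were not run. Depth limits the shares: the A1/A2 wells are shallower than the EMP wells, and 6 of the 8 genes had too few counts for the filtered test.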
